A study of Arabidopsis thaliana with 20 samples.

Results

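The genes described here are 9 of the 37336 genes counted in the series, chosen by their locus identifiers: ALD1 (AT2G13810), SARD4 (AT5G52810) and FMO1 (AT1G19250), which build N-hydroxypipecolic acid from lysine, and UGT76B1 (AT3G11340), UGT74F1 (AT2G43840), UGT74F2 (AT2G43820), DMR6 (AT5G24530), DLO1 (AT4G10500) and BSMT1 (AT3G11480), which modify salicylic acid or the pipecolate product. All 9 were found in the count table. Transcript abundance was measured by RNA sequencing of wild-type Columbia-0 Arabidopsis thaliana leaves, 6 weeks old, in 4 groups of 5 samples. Leaves were infiltrated by syringe with polyethylenimine-coated single-walled carbon nanotubes carrying plasmid DNA (PEI-SWNTs, 50 ng/µL), with uncoated nanotubes carrying single-stranded RNA (SWNTs, 50 ng/µL) or with water, or were left alone (non-infiltrated). Each sample pooled 4 leaves from different plants, taken 2 days after infiltration. PEI-SWNTs and SWNTs differed in coating, in cargo and in starting nanotube, which was carboxylated for PEI-SWNTs and pristine for SWNTs. The effects of these differences cannot be told apart in these samples, and every infiltrated group also received the wounding and liquid of the syringe.

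N-hydroxypipecolic acid and salicylic acid are small defence signals that act together in systemic acquired resistance, the state in which a leaf infected once primes the rest of the plant. ALD1 is the aminotransferase that starts the pipecolate route from lysine, SARD4 is the reductase that completes pipecolic acid, and FMO1 is the monooxygenase that hydroxylates it. Both signals are switched off or stored by further enzymes: glucosyltransferases attach a sugar, DMR6 and DLO1 hydroxylate salicylic acid, and BSMT1 methylates it to a volatile ester.

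Of the 9 genes, DMR6, DLO1, SARD4 and UGT74F2 passed the expression filter of an average of at least 1 RPKM (reads scaled for gene length and library size) and could be tested with 16288 genes in all. A gene was called when edgeR's quasi-likelihood test gave a Benjamini-Hochberg adjusted p under 0.05 and the change was at least 2-fold. In PEI-SWNT against non-infiltrated leaves all 4 rose, where 8.47% of tested genes were called higher. In SWNT against non-infiltrated leaves all 4 rose too, beside 4.82% of tested genes, and in water against non-infiltrated leaves DMR6, DLO1 and SARD4 rose, beside 2.61%. Against water, DLO1, DMR6 and SARD4 rose with PEI-SWNTs (6.13% of tested genes were called higher) and DLO1 alone among the 4 rose with SWNTs (1.23%). Between PEI-SWNT and SWNT leaves the calls were DLO1, DMR6 and SARD4 again (3.81%), all higher with PEI-SWNTs. DLO1 passed the filter only through the PEI-SWNT group: its mean was 2.22 RPKM over all samples and 0.572 RPKM over the 15 others, so its place among the tested genes depends on its change. The other 5 genes were too weakly expressed for that test and are described by their counts.

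The 250 bases before the transcription start of each gene were read from the reference genome (TAIR10.1) and searched on both strands for 3 motifs: the W-box (TTGACC or TTGACT), to which WRKY factors bind, TGACG, the core bound by TGA factors, and GAAATTT, bound by the SARD1 and CBP60g factors. No match of 1 motif overlapped a match of another. A W-box was present in 28.4% of 27443 protein-coding promoter windows, TGACG in 18.6% and GAAATTT in 12.5%. GAAATTT was found 4 times before FMO1, 2 times before ALD1 and 1 time before UGT76B1. TGACG was found 2 times before DLO1, and a W-box 2 times before SARD4 and 1 time before BSMT1. DMR6, UGT74F1 and UGT74F2 had none of the 3. A match is a description of the letters, not a binding site. Upstream windows of FMO1, ALD1 and DLO1 are shown because they hold more than 1 match, with matched letters in capitals, 5′ to 3′ on the gene's strand. The FMO1 window lies at chr1:6653196-6653445 (minus strand), that of ALD1 at chr2:5768167-5768416 (plus strand) and that of DLO1 at chr4:6490767-6491016 (plus strand).
FMO1: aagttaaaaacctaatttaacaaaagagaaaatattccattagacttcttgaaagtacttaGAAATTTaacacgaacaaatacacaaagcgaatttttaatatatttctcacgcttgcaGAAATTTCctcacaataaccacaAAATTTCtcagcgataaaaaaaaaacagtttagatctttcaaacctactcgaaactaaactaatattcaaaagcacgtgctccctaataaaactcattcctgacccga
ALD1: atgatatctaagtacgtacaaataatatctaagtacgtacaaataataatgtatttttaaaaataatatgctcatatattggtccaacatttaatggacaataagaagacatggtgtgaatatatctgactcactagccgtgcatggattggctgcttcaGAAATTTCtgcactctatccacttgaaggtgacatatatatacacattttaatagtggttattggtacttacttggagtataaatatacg
DLO1: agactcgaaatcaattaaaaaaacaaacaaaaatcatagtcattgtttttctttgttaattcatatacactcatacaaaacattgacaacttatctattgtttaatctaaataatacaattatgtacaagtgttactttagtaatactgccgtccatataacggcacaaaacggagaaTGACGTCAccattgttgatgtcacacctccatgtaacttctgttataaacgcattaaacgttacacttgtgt
In ALD1 both matches share letters, 1 on each strand, as do 2 of the 4 in FMO1, and in DLO1 the 2 matches make the palindrome TGACGTCA. The SARD4 window is not shown because 170 of its 250 bases are exons of a neighbouring gene.

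Counting could confuse near-identical genes, so each gene was compared with its relatives. UGT74F1 and UGT74F2 lie close together on chromosome 2, and their coding sequences were identical at 84.1% of 1350 aligned positions. Their longest shared run, at chr2:18158786-18158833 in UGT74F1 and chr2:18153335-18153382 in UGT74F2 (plus strand, TAIR10.1), is 48 bases.
UGT74F1 and UGT74F2: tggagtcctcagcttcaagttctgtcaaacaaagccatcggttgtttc
That run is shorter than a sequencing read, and no 100-base stretch of exon from any of the 9 genes was found elsewhere in the genome. DMR6 and DLO1 were identical at 60.4% of 1065 aligned positions. Exons of UGT74F1 overlap other genes over 406 bases, all on the opposite strand, those of SARD4 over 89 bases on the same strand, those of BSMT1 over 79 and those of UGT74F2 over 62, while ALD1, FMO1, UGT76B1, DMR6 and DLO1 have no such overlap. The strand setting of the counting was not given in the sources used here, so reads in those overlaps cannot be assigned with certainty.

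The libraries held 13387714 to 29737496 counts on genes, and 1 count was worth 0.0338 to 0.0748 CPM, the counts of a gene scaled to a common library size. PEI-SWNT libraries were the shallowest (13387714 to 21943422 counts) and non-infiltrated libraries the deepest (23138648 to 29737496). A count of 0 allows a level up to that of 3 counts, 0.101 to 0.224 CPM depending on the library, and covers counting error only. Of 5 leaf mesophyll markers, RBCS1A, RCA and LHCB1.1 made up nearly all of their summed level, 17766 to 23813 CPM in PEI-SWNT, 17248 to 18381 in SWNT, 15184 to 22622 in water and 14096 to 17259 in non-infiltrated leaves. CA1, a carbonic anhydrase, moved the other way and fell in PEI-SWNT against non-infiltrated leaves (55.3 ± 32.2 and 116 ± 21.7 CPM, log2 fold change -1.07, adjusted p = 0.00324), and GLDP1 averaged 616 and 862 CPM in these 2 groups. Root hair markers were at 0 in all samples. Summed guard cell markers were at 35.4 to 39.1 CPM in PEI-SWNT, 43.2 to 49.4 in SWNT, 41.8 to 50.9 in water and 62.4 to 78.4 in non-infiltrated leaves. Of 3 floral organ markers, PI was higher in PEI-SWNT leaves (2.54 CPM on average, against 0.0672 CPM in water leaves), while AG averaged 0.278 and 0.680 CPM and AP3 0.0752 and 0.0707 CPM in these groups, and the sum of the 3 was 1.55 to 5.34 CPM in PEI-SWNT, 0.274 to 1.05 in SWNT, 0.733 to 0.910 in water and 0.372 to 0.845 in non-infiltrated leaves. The part of these markers in the results below was not tested. In whole leaves, fewer cells of a type and less RNA per cell cannot be told apart. SWNTs replicate 1 stood apart, with 6 genes of at least 20 counts that were at least 4-fold above every other library, against 0 to 2 in the other libraries. ALD1 is among those 6, so the SWNT comparisons of ALD1 and FMO1 are given with and without this library.

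SARD4 (chr5:21399331-21400686, plus strand, 1 exon) was the member of the pipecolate route with the highest level, and its level with PEI-SWNTs stood apart from the other groups. Its CPM values were 29.8, 34.3, 32.3, 30.3 and 26.9 in PEI-SWNT leaves, 13.8, 7.35, 8.60, 9.41 and 5.88 in SWNT leaves, 11.9, 7.71, 6.15, 7.09 and 11.3 in water leaves and 7.24, 3.10, 4.44, 4.49 and 2.97 in non-infiltrated leaves. Every PEI-SWNT sample lay above all 15 others, and the ranges of the remaining groups overlapped. Of all tested genes, 35% had PEI-SWNT and water ranges that did not overlap, 29% PEI-SWNT and SWNT ranges, and 41.8% PEI-SWNT and non-infiltrated ranges. SARD4 rose 3.46-fold in PEI-SWNT against water leaves (log2 fold change 1.79 ± 0.23 (SE), edgeR adjusted p = 3.52e-06), 3.42-fold against SWNT leaves (1.78 ± 0.24, adjusted p = 7.80e-06) and 6.92-fold against non-infiltrated leaves (2.79 ± 0.25, adjusted p = 1.16e-08). SWNT and water leaves had a log2 fold change of 0.01 ± 0.24 (adjusted p = 0.979), with a 95% interval of the difference from -0.48 to 0.51. Against non-infiltrated leaves SARD4 was just past 2-fold, at 1.02 ± 0.25 in SWNT leaves (adjusted p = 0.00285) and 1.00 ± 0.24 in water leaves (adjusted p = 0.00436). Both calls were lost with 1 sample left out: the SWNT value was 0.81 without SWNTs replicate 1, 0.99 without SWNTs replicate 4, 0.91 without non-infiltrated replicate 2 and 0.90 without non-infiltrated replicate 5. The water value was 0.87 without water replicate 1, 0.90 without water replicate 5, 0.90 without non-infiltrated replicate 2 and 0.88 without non-infiltrated replicate 5.

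ALD1 (chr2:5768417-5772266, plus strand, 10 exons), the entry enzyme, stayed at a few reads per library in 19 of 20 samples. The counts were 3, 4, 5, 2 and 1 in PEI-SWNT leaves, 51, 2, 2, 1 and 4 in SWNT leaves, 5, 9, 1, 4 and 4 in water leaves and 1, 0, 0, 3 and 0 in non-infiltrated leaves. The groups overlapped, and the one high value, 2.86 CPM, was SWNTs replicate 1, with 0.482 CPM as the next highest of all samples. Since no non-infiltrated sample exceeded 3 counts, the summed counts were compared: the PEI-SWNT to non-infiltrated ratio was 5.57 (95% counting interval 1.77 to 23.0), the SWNT ratio 21.3 (7.89 to 80.7) and the water ratio 6.91 (2.36 to 27.5). These intervals cover counting error and not the spread between samples. Without SWNTs replicate 1, a comparison chosen after seeing the data, the SWNT ratio was 3.96 (1.11 to 17.6), 9 counts in 4 SWNT libraries against 4 in 5 non-infiltrated libraries. In a second fit over the 25909 genes with at least 1 count, ALD1 was not called in PEI-SWNT against water (-0.31 ± 0.99, adjusted p = 0.875), SWNT against water (1.57 ± 0.85, adjusted p = 0.335) or PEI-SWNT against SWNT leaves (-1.88 ± 0.90, adjusted p = 0.139). Both of the SWNT values turned in sign without SWNTs replicate 1, which held 51 of the 60 SWNT counts: SWNT against water ALD1 was then at -0.83 (adjusted p = 0.593, ratio of summed counts 0.574, 0.234 to 1.29) and PEI-SWNT against SWNT at 0.54 (adjusted p = 0.662, ratio 1.41, 0.576 to 3.64). The value against water in PEI-SWNT leaves turned to 0.17 without water replicate 2.

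FMO1 (chr1:6650476-6653195, minus strand, 5 exons) was nearly silent without infiltration and was read in every infiltrated sample. Its counts were 34, 21, 18, 18 and 29 in PEI-SWNT leaves, 49, 5, 6, 9 and 12 in SWNT leaves, 15, 13, 4, 11 and 18 in water leaves and 0, 0, 0, 1 and 0 in non-infiltrated leaves. In CPM these were 0.961 to 2.02 with PEI-SWNTs, 0.274 to 2.75 with SWNTs, 0.232 to 0.696 with water and 0 to 0.0412 without infiltration. The PEI-SWNT range lay above the water range but overlapped the SWNT range through SWNTs replicate 1, and the other 4 SWNT samples were at 0.274 to 0.588 CPM. Ratios of summed counts to the single non-infiltrated count were 178 in PEI-SWNT leaves (95% counting interval 31.4 to 7096), 115 in SWNT leaves (20.1 to 4596) and 73.3 in water leaves (12.7 to 2942). Without SWNTs replicate 1 the SWNT ratio was 56.4 (9.41 to 2295). In the fit over 25909 genes FMO1 rose in PEI-SWNT against water leaves (1.27 ± 0.48, adjusted p = 0.0459), where 5.62% of those genes were called higher, and this call was lost in 10 of 20 fits with 1 sample left out. Without any 1 of the 5 water samples, PEI-SWNTs replicate 1, 2, 3 or 5 or non-infiltrated replicate 4, the values were 1.102 to 1.376 (adjusted p 0.0519 to 0.115). SWNT against water leaves gave 0.66 ± 0.50 (adjusted p = 0.529), and without SWNTs replicate 1 FMO1 turned to -0.37 (adjusted p = 0.652), with a ratio of summed counts of 0.769 (0.485 to 1.20) against 1.57 with it. PEI-SWNT against SWNT leaves gave 0.61 ± 0.47 (adjusted p = 0.387), and without SWNTs replicate 1 the value was 1.66 (adjusted p = 0.00157).

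**Figure D1:**
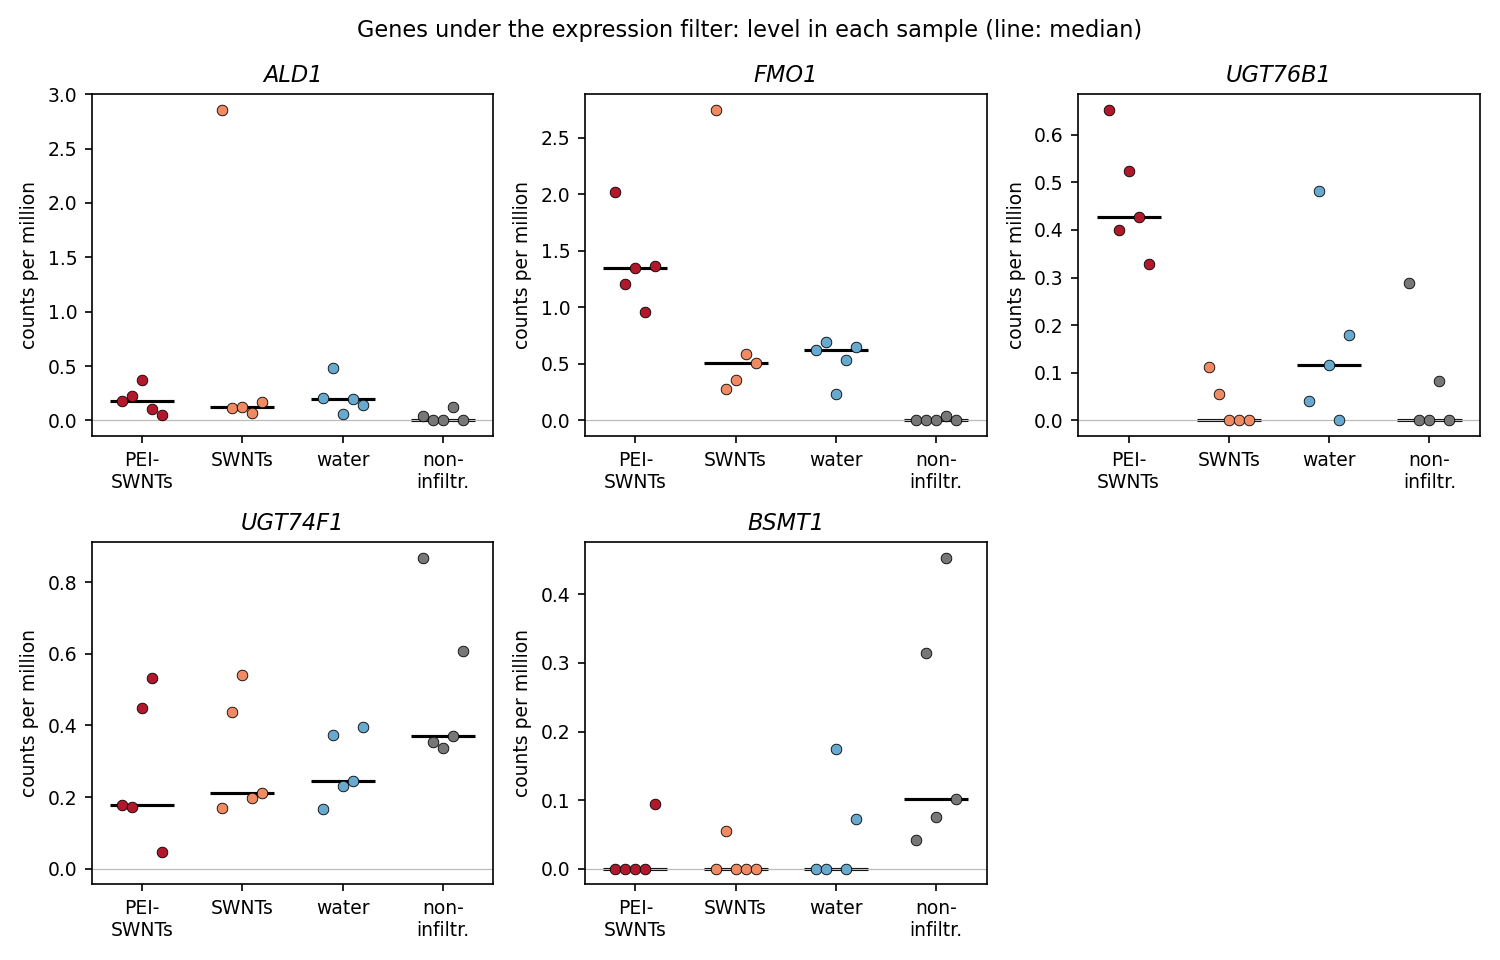
Level of ALD1, FMO1, UGT76B1, UGT74F1 and BSMT1 in CPM on linear axes, 1 point per sample (replicates 1 to 5 from left to right within each group), with a line at the group median. SWNTs replicate 1 is the highest ALD1 point at 2.86 CPM and the highest FMO1 point at 2.75 CPM, and BSMT1 is read in every non-infiltrated sample.

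DMR6, which hydroxylates salicylic acid at position 5, was the most abundant of the 9 genes, and DLO1, which hydroxylates it at position 3, was scarce outside PEI-SWNT leaves. DMR6 (chr5:8378759-8383401, plus strand, 4 exons) was at 287, 326, 321, 293 and 276 CPM in PEI-SWNT leaves, 96.4, 94.8, 105.9, 96.5 and 95.9 in SWNT leaves, 85.8, 57.5, 67.4, 48.4 and 90.8 in water leaves and 40.6, 16.9, 10.5, 21.5 and 27.6 in non-infiltrated leaves. The 4 ranges did not overlap, in the order PEI-SWNTs, SWNTs, water, non-infiltrated from high to low. Ranges did not overlap for 27% of tested genes between SWNT and non-infiltrated leaves and for 17.8% between water and non-infiltrated leaves. DMR6 rose 4.29-fold in PEI-SWNT against water leaves (2.10 ± 0.24, adjusted p = 6.84e-07) and 3.07-fold against SWNT leaves (1.62 ± 0.24, adjusted p = 2.29e-05). Against non-infiltrated leaves it rose 12.8-fold with PEI-SWNTs (3.68 ± 0.26, adjusted p = 5.05e-10), 4.18-fold with SWNTs (2.06 ± 0.24, adjusted p = 3.09e-06) and 2.99-fold with water (1.58 ± 0.24, adjusted p = 1.08e-04). For the neighbouring SWNT and water groups the ranges were apart, as for 11.9% of tested genes, but the test was not passed (0.48 ± 0.23, adjusted p = 0.188, 95% interval -0.01 to 0.97).

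DLO1 (chr4:6491017-6492578, plus strand, 3 exons) was at 9.02, 11.04, 14.4, 6.99 and 7.23 CPM in PEI-SWNT leaves, 1.07, 0.932, 2.10, 2.35 and 1.47 in SWNT leaves, 0.744, 0.321, 0.522, 0.587 and 0.718 in water leaves and 0.414, 0.0393, 0, 0.289 and 0.101 in non-infiltrated leaves. The PEI-SWNT and SWNT groups each lay apart from all others, and the water and non-infiltrated ranges overlapped. The non-infiltrated values rest on 10, 1, 0, 7 and 3 counts. DLO1 passed the expression filter only through PEI-SWNT leaves, so its tests against that group describe its values and are no independent support. DLO1 rose 16.3-fold in PEI-SWNT against water leaves (4.03 ± 0.38, adjusted p = 6.55e-08) and 6.17-fold against SWNT leaves (2.62 ± 0.35, adjusted p = 7.46e-06). Against non-infiltrated leaves the log2 fold change was 5.85 ± 0.45 with PEI-SWNTs (adjusted p = 1.60e-09), 3.22 ± 0.48 with SWNTs (adjusted p = 3.62e-05) and 1.82 ± 0.54 with water (adjusted p = 0.0139). The water call was lost with counts thinned to the smallest library (1.37, adjusted p = 0.102) and with only the 10 samples compared (adjusted p = 0.0505). DLO1 also rose in SWNT against water leaves (1.40 ± 0.41, adjusted p = 0.0275), and 5 of 20 fits with 1 sample left out lost that call: without water replicate 2, 3 or 4 or SWNTs replicate 3 or 4 the values were 1.26, 1.35, 1.40, 1.28 and 1.21 (adjusted p 0.0504 to 0.0778). Per length, mean DMR6 levels exceeded mean DLO1 levels 28.3-fold in PEI-SWNT leaves (203 and 7.17 RPKM), 56.8-fold in SWNT leaves, 111-fold in water leaves and 128-fold in non-infiltrated leaves.

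**Figure D2:**
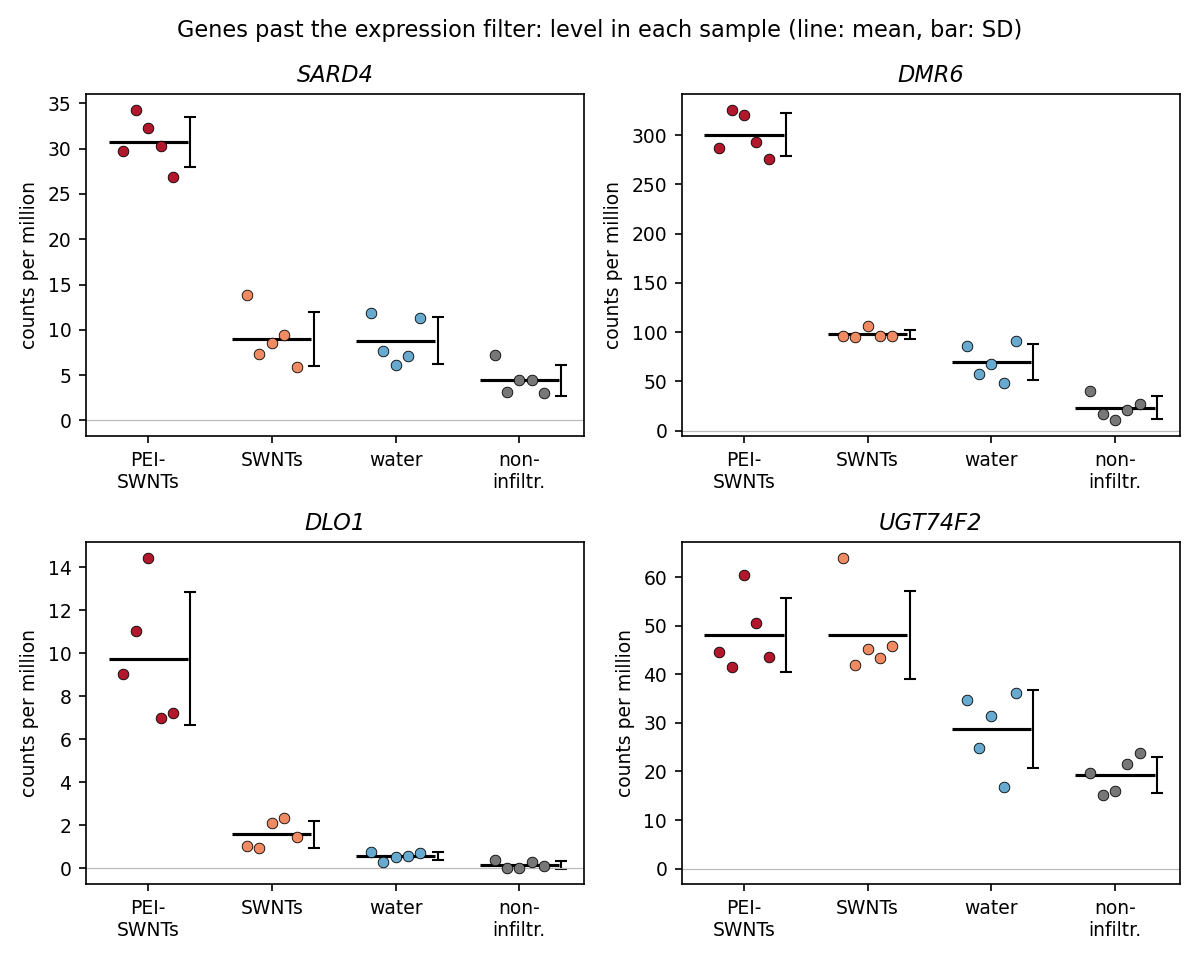
Level of SARD4, DMR6, DLO1 and UGT74F2 in CPM on linear axes, 1 point per sample (replicates 1 to 5 from left to right within each group), with the mean as a line and the SD as a bar. PEI-SWNT samples stand above all others for SARD4, DMR6 and DLO1, while for UGT74F2 the PEI-SWNT and SWNT means are both 48.1 CPM.

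Among the glucosyltransferases only UGT74F2, which makes the glucose ester of salicylic acid, was expressed above the filter, and its pattern differed from those of DMR6, DLO1 and SARD4 in that PEI-SWNTs and SWNTs gave like levels. UGT74F2 (chr2:18152078-18153908, plus strand, 2 exons) was at 44.5, 41.6, 60.4, 50.6 and 43.6 CPM in PEI-SWNT leaves, 64.0, 42.0, 45.3, 43.3 and 45.8 in SWNT leaves, 34.6, 24.8, 31.4, 16.8 and 36.2 in water leaves and 19.7, 15.2, 16.0, 21.6 and 23.8 in non-infiltrated leaves. Both nanotube groups lay above every water sample, and water and non-infiltrated ranges overlapped. PEI-SWNT and SWNT leaves averaged 48.1 ± 7.63 and 48.1 ± 9.02 CPM (SD, n = 5 each). The log2 fold change between them was 0.00 ± 0.18 (adjusted p = 0.999), with a 95% interval from -0.37 to 0.37. Against non-infiltrated leaves UGT74F2 rose 2.50-fold in both (1.32 ± 0.18, adjusted p = 4.01e-06 with PEI-SWNTs and 1.50e-05 with SWNTs). Against water it differed by 1.67-fold in both, under the 2-fold minimum (0.74 ± 0.18, adjusted p = 0.00194 with PEI-SWNTs and 0.00931 with SWNTs). Water against non-infiltrated leaves gave 0.58 ± 0.18 (adjusted p = 0.0190), also under that minimum.

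UGT74F1 (chr2:18157529-18159231, plus strand, 2 exons), its close relative, which makes the glucoside of salicylic acid, had 3, 3, 6, 10 and 1 counts in PEI-SWNT leaves, 3, 8, 9, 3 and 5 in SWNT leaves, 4, 7, 4, 5 and 11 in water leaves and 21, 9, 9, 9 and 18 in non-infiltrated leaves. The non-infiltrated libraries were also the deepest, and in CPM the groups overlapped, at 0.0469 to 0.534, 0.168 to 0.541, 0.165 to 0.395 and 0.336 to 0.868 in the same order. The fit over 25909 genes called no change in any comparison (PEI-SWNTs against non-infiltrated -0.92 ± 0.48, adjusted p = 0.129), and without PEI-SWNTs replicate 4 that value was -1.35 (adjusted p = 0.0410). Mean UGT74F2 levels per length were 157-fold those of UGT74F1 in PEI-SWNT leaves, 139-fold in SWNT leaves, 91.8-fold in water leaves and 34.1-fold in non-infiltrated leaves.

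UGT76B1 (chr3:3556554-3558361, plus strand, 2 exons), which glucosylates N-hydroxypipecolic acid and salicylic acid, had 11, 7, 7, 8 and 7 counts in PEI-SWNT leaves, 2, 1, 0, 0 and 0 in SWNT leaves, 1, 9, 2, 0 and 5 in water leaves and 7, 0, 0, 2 and 0 in non-infiltrated leaves. The PEI-SWNT range, 0.329 to 0.653 CPM, lay above the SWNT and non-infiltrated ranges and overlapped that of water. It rose in PEI-SWNT against non-infiltrated leaves (2.60 ± 0.82, adjusted p = 0.0131), where 7.72% of the 25909 genes were called higher, and was not called in PEI-SWNT against water leaves (1.47 ± 0.76, adjusted p = 0.149). Without water replicate 2 the value against water was 2.32 (adjusted p = 0.0367). No SWNT sample exceeded 2 counts, and the ratio of summed counts, PEI-SWNT to SWNT, was 14.0 (95% counting interval 4.44 to 70.5).

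BSMT1 (chr3:3614421-3617342, plus strand, 5 exons), the methyltransferase that makes methyl salicylate and methyl benzoate, had its highest summed counts in non-infiltrated leaves. Its counts were 0, 0, 0, 0 and 2 in PEI-SWNT leaves, 0, 1, 0, 0 and 0 in SWNT leaves, 0, 0, 3, 0 and 2 in water leaves and 1, 8, 2, 11 and 3 in non-infiltrated leaves. Only the non-infiltrated group had reads in every sample, and its range of 0.0414 to 0.453 CPM overlapped those of the other groups. Against 25 summed counts in non-infiltrated leaves, the 2 in PEI-SWNT leaves gave a ratio of 0.119 (95% counting interval 0.0136 to 0.476), the 1 in SWNT leaves 0.0568 (0.00138 to 0.347) and the 5 in water leaves 0.240 (0.0719 to 0.639). These intervals cover counting error and not the spread between samples, and non-infiltrated replicates 2 and 4 held 8 and 11 of the 25 counts. No sample of the infiltrated groups exceeded 3 counts, so differences among them were not detectable at this depth.

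**Figure D3:**
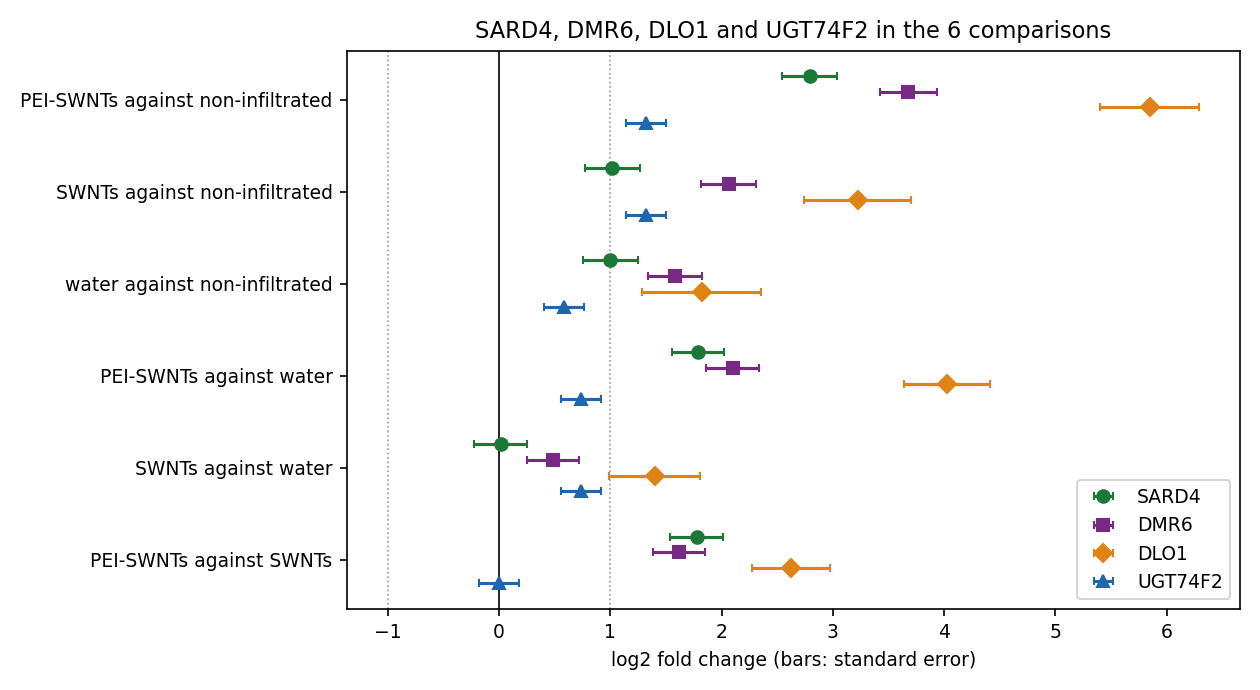
Log2 fold change (horizontal axis, bars are the standard error) of SARD4, DMR6, DLO1 and UGT74F2 in the 6 comparisons of the 4 groups, with dotted lines at 2-fold. DLO1 is farthest right in each comparison, reaching 5.85 in PEI-SWNT against non-infiltrated leaves, and UGT74F2 is at 0.00 in PEI-SWNT against SWNT leaves. DLO1 passed the expression filter only through PEI-SWNT leaves.

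The comparisons above share groups, so they are not independent of each other. Without DLO1, left out after its values were seen because it passed the filter only through PEI-SWNT leaves, the median log2 fold change of DMR6, SARD4 and UGT74F2 was 2.79 in PEI-SWNT, 1.32 in SWNT and 1.00 in water leaves against non-infiltrated leaves, beside medians over all 16288 genes of -0.02, -0.01 and 0.00. It was 1.79 in PEI-SWNT against water, 0.48 in SWNT against water and 1.62 in PEI-SWNT against SWNT leaves, beside 0.00, 0.01 and 0.00 over all genes. These medians leave out the genes under the filter, so they do not describe the whole set. The set was also chosen with earlier results of these data known, so the medians are a description and no test. A single edgeR test set all infiltrated groups together against non-infiltrated leaves. It called DMR6 (adjusted p = 1.86e-09), SARD4 (adjusted p = 2.96e-08) and UGT74F2 (adjusted p = 6.11e-06), where 16.1% of tested genes were called. DLO1 was called too (adjusted p = 1.21e-09), but it entered this test only through its PEI-SWNT level.

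Genes around these enzymes were followed in PEI-SWNT against water leaves, where 6.13% of all tested genes were called higher. Of 4 genes that supply salicylic acid, 3 rose: ICS1, the isochorismate synthase, by 1.56 ± 0.17 on the log2 scale (adjusted p = 3.07e-07), EDS5, the transporter that exports isochorismate from the plastid, by 1.85 ± 0.19 (adjusted p = 1.31e-07), and PBS3, which joins isochorismate to glutamate, by 3.39 ± 0.29 (adjusted p = 1.37e-08). PBS3 averaged 31.8 ± 3.58 CPM in PEI-SWNT leaves and 3.03 ± 0.131 CPM in water leaves (SD, n = 5 each). Exons of EDS5 overlap an opposite-strand gene over 213 of 2261 bases. EPS1, which releases salicylic acid from that conjugate, was at -0.33 ± 0.12 (adjusted p = 0.0325), under 2-fold. In SWNT against water leaves none of the 4 was called: ICS1 was at 0.48 ± 0.17 (adjusted p = 0.0629) and PBS3 at 0.76 ± 0.29 (adjusted p = 0.0911).

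Of 7 transcription factors that regulate ALD1, SARD4 or FMO1, 3 rose in PEI-SWNT against water leaves, beside 6.13% of all tested genes. CBP60g averaged 178 ± 24.7 CPM in PEI-SWNT leaves and 20.2 ± 10.1 CPM in water leaves (3.14 ± 0.28, adjusted p = 2.37e-08), and SARD1 averaged 96.2 ± 14.2 and 15.7 ± 2.93 CPM in the same groups (2.61 ± 0.19, adjusted p = 1.91e-09). Both activate salicylate and pipecolate genes, and exons of SARD1 overlap an opposite-strand gene over 441 of 2397 bases. CAMTA3, a calmodulin-binding repressor of the same genes, also rose (1.08 ± 0.06, adjusted p = 3.35e-11). TGA4, a bZIP factor, was lowest of the list at -0.03 ± 0.14 (adjusted p = 0.865). In SWNT against water leaves only CBP60g of the 7 was called (1.07 ± 0.26, adjusted p = 0.0101), with ranges that overlapped, beside 1.23% of all tested genes called higher. By an edgeR adjusted p under 0.05 alone, 4 of the 7 were higher with SWNTs and 0 lower, beside 1225 higher and 1000 lower of 16288 tested genes. SARD1 averaged 27.1 ± 5.35 CPM and CAMTA3 77.1 ± 4.32 CPM in SWNT leaves, against 15.7 ± 2.93 and 52.5 ± 2.67 CPM in water leaves.

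None of 7 genes of lysine supply and breakdown was called in PEI-SWNT against water leaves, 2 of them having an adjusted p under 0.05 at less than 2-fold. Of all 16288 tested genes, 4505 were higher and 3953 lower at that adjusted p in this comparison, whatever their fold change. The values of the 7 genes ran from -0.45 ± 0.11 for DAPDC1, a diaminopimelate decarboxylase (adjusted p = 0.00247), to 0.36 ± 0.26 for LKR/SDH, the enzyme that degrades lysine by the saccharopine route (adjusted p = 0.249). LKR/SDH was lower in all infiltrated groups than in non-infiltrated leaves, at -1.08 ± 0.26 with PEI-SWNTs (adjusted p = 0.00131), -1.21 ± 0.26 with SWNTs (adjusted p = 0.00104) and -1.44 ± 0.26 with water (adjusted p = 4.50e-04).

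Of 9 other enzymes of salicylate and methyl salicylate, 5 were tested in PEI-SWNT against water leaves. GH3.5, which joins amino acids to salicylic acid and auxin, rose (2.28 ± 0.17, adjusted p = 3.92e-09), as did MES9, a methyl esterase that frees salicylic acid from methyl salicylate (1.73 ± 0.34, adjusted p = 3.25e-04). MES7, of the same esterase family, fell by 1.93 ± 0.30 on the log2 scale (adjusted p = 3.02e-05). Of 11 sequence relatives of the 9 genes, 5 were tested and JMT, the methyltransferase that makes methyl jasmonate and a relative of BSMT1, fell by 2.14 ± 0.56 on the log2 scale (adjusted p = 0.00345), with 0.419 ± 0.200 CPM in PEI-SWNT leaves and 1.88 ± 1.07 CPM in water leaves whose ranges overlapped. JMT passed the filter through its non-infiltrated level, 2.65 RPKM on average, against 0.252, 0.802 and 1.13 RPKM in PEI-SWNT, SWNT and water leaves. Its PEI-SWNT values rest on 4 to 14 counts. UGT74B1, a glucosyltransferase of glucosinolate synthesis, was the highest of these relatives at 0.55 ± 0.14 (adjusted p = 0.00294), under 2-fold. In SWNT against water leaves GH3.5 was the only gene called among the 5 tested salicylate and methyl salicylate enzymes (log2 fold change 1.32). It averaged 32.6 ± 5.35 CPM in SWNT leaves and 13.0 ± 2.06 CPM in water leaves. Of all tested genes, 1.23% were called higher in that comparison.

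**Figure D4:**
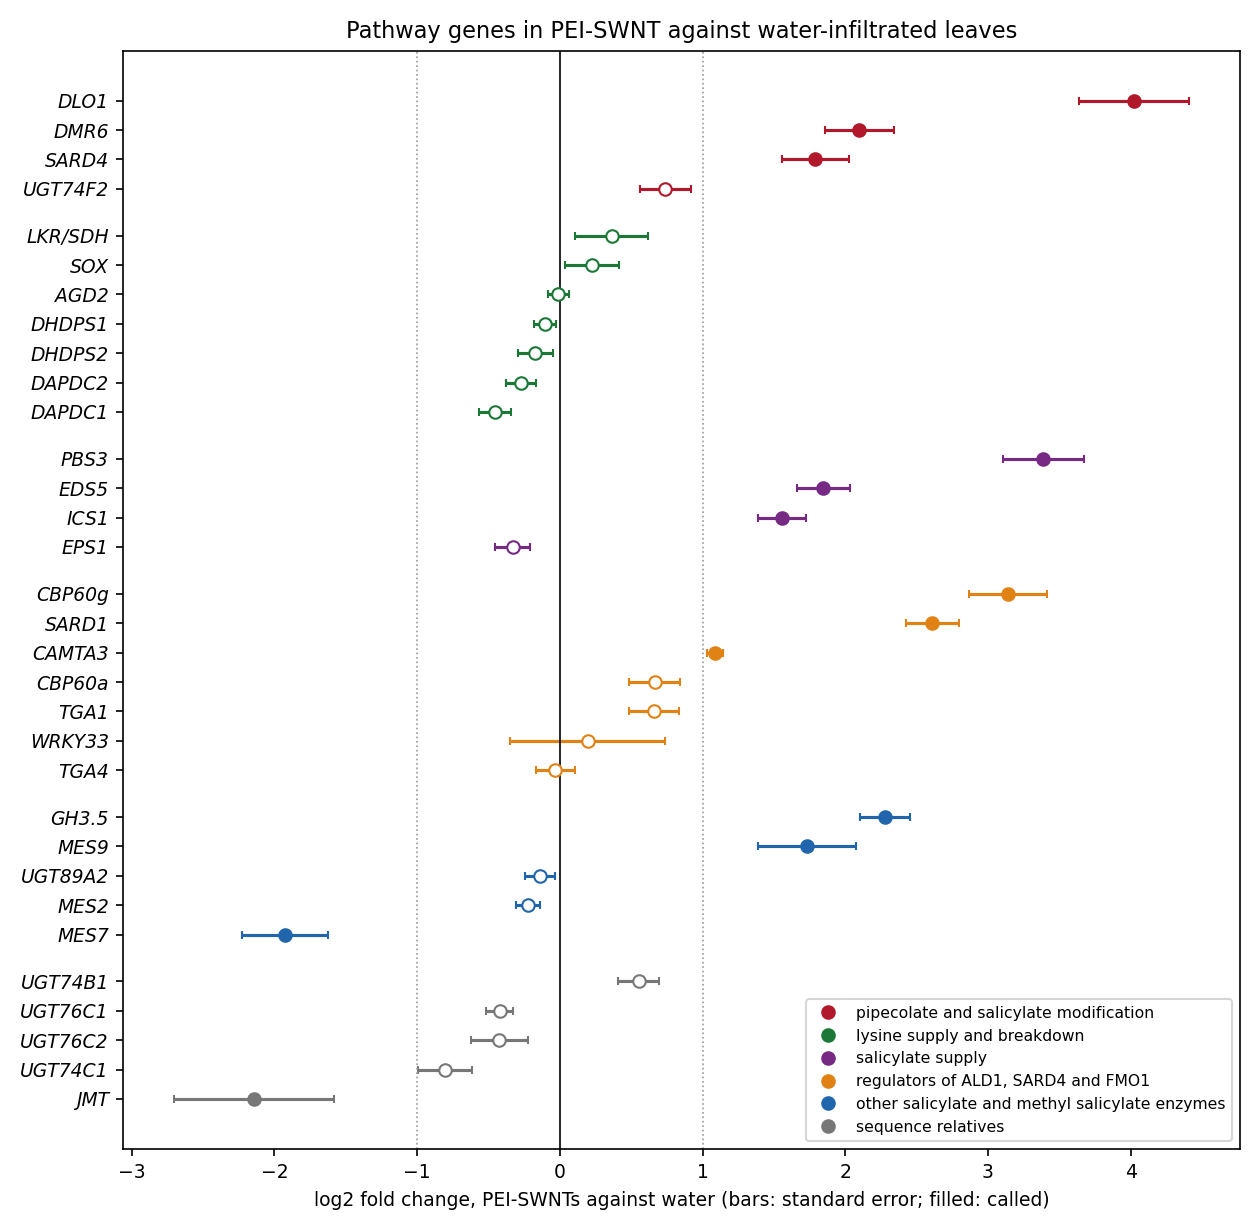
Log2 fold change in PEI-SWNT against water leaves (horizontal axis, bars are the standard error) for the tested genes of each group, filled where the change was called and with dotted lines at 2-fold. SARD4, DMR6 and DLO1 lie at 1.79 or above, but DLO1 passed the expression filter only through PEI-SWNT leaves. Of their listed regulators, the activators SARD1 and CBP60g and the repressor CAMTA3 are above 2-fold, and no gene of lysine supply and breakdown reaches 2-fold.

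For each tested gene the most similar profiles over the 20 samples were found by the root mean square difference of centred log2 CPM among 16288 genes, a description with no test. SARD4 was closest to AT2G39210 (0.31) and AT3G61280 (0.33), DMR6 to AT1G35710 (0.29) and the wall-associated kinase gene WAK1 (0.29), and UGT74F2 to AT1G03230 (0.19) and KCS12 (0.23). DLO1 was closest to AT5G10760 (0.48) and the receptor-like protein gene RLP23 (0.48), and with a smaller prior count of 0.5 both were replaced, by LURP1 (0.67) and BG3 (0.68).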

How the data were processed

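RNA sequencing of 20 leaf samples in 4 groups of 5 was analysed from the raw counts per gene that the authors deposited. The authors trimmed reads with Trimmomatic, aligned them to TAIR10 with HISAT2 and counted them with featureCounts 2.0.1, then used edgeR 3.30.3 (versions from the submitters' processing notes). A further deposited table holds gene length, which was used for RPKM only where the annotation gave none, and the authors' own fold changes, expression averages and test results, which were not used. Libraries held 13387714 to 29737496 counts on genes, and replicates came from different plants.

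From these counts edgeR 4.0.16 (R 4.3.3) was run: 16288 genes whose mean RPKM was 1 or more, TMM normalization, 1 quasi-likelihood fit of 4 group means (glmQLFit, glmQLFTest, legacy dispersions) over all samples, a contrast per pair of groups and Benjamini-Hochberg adjustment over all tested genes. Standard errors are the log2 fold change divided by the square root of F. A second fit used the 25909 genes with at least 1 count, for the genes under the filter. No fold change is given where no sample of a group exceeded 3 counts. Ratios of summed counts then carry exact 95% counting intervals. CPM uses TMM-scaled library sizes. Counts were also simulated for PEI-SWNTs against water over 16288 genes. An adjusted p under 0.05 was reached by 91 of 100 genes changed 2-fold, 96 of 100 changed 4-fold and 13 of 16088 unchanged genes. These numbers use the adjusted p alone, without the 2-fold minimum, so they are not rates of calls. The simulation also changed far fewer genes than the data, where 4505 were higher and 3953 lower at that adjusted p. The adjustment depends on that share, so the simulated numbers do not carry over to these data.

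Promoter and coding sequences came from RefSeq's TAIR10.1, whose exon lengths equalled the authors' for 16064 of 16068 genes. Named were all 9 genes, the genes of other lists that were called or lay at either end of their list in PEI-SWNTs against water, and the 2 most similar profiles of each tested gene. LKR/SDH against non-infiltrated leaves, individual cell type markers, the SWNT values of listed genes, ALD1 and FMO1 ratios without SWNTs replicate 1 and the replacements for DLO1's profiles were chosen after their values were seen. The genes and lists were chosen with earlier results of these data known. SWNTs replicates 3 and 4 were the closest of 40 replicate pairs (mean chi-square per gene 3.66, next 6.78, highest 61.6, where counting noise alone gives about 1) and were kept as separate samples. Alternatives covered normalization, filter, tool (DESeq2 1.42.0), dispersion, thresholds, samples, a replicate block, GC content, depth and each sample left out in turn. Protein sequences were not used here.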

Additional observations from a re-analysis of the deposited data

Results flagged for a closer look

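Among 36 sets of 5 values (9 genes in 4 groups), 8 values lay far from the other 4 of their group. A value was set apart when its gap to the nearest other value exceeded 0.71 of the whole range. That cutoff is made for about 1 in 20 sets of continuous, normally spread values. In sets of few reads a lone nonzero count always passes it, so that rate cannot be set against the 8 values. Of these, 3 were in SWNTs replicate 1: ALD1 at 2.86 CPM against 0.0653 to 0.168 CPM in the other SWNT samples, FMO1 at 2.75 CPM against 0.274 to 0.588 CPM, and UGT74F2 at 64.0 CPM against 42.0 to 45.8 CPM. DMR6 in SWNTs replicate 3 was at 105.9 CPM against 94.8 to 96.5 CPM. The remaining 4 rest on few reads: UGT76B1 in non-infiltrated replicate 1 was at 0.289 CPM (7 counts), FMO1 in non-infiltrated replicate 4 at 0.0412 CPM (1 count), BSMT1 in PEI-SWNTs replicate 5 at 0.0939 CPM (2 counts) and BSMT1 in SWNTs replicate 2 at 0.0548 CPM (1 count).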

How the results depend on the processing

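Of 39 log2 fold changes followed, 15 kept their direction and their side of the threshold under every alternative and with each of the 20 samples left out. The sign turned in at least 1 fit for 9, none of them called in the main analysis. Of these 9, SARD4 in SWNTs against water (0.01) was at -0.0064 with no filter, -0.0037 with only the 10 samples compared, -0.0118 with the replicate block and -0.0018 with SWNTs replicates 3 and 4 summed. UGT74F2 in PEI-SWNTs against SWNTs (0.00) was at -0.00015 with RLE normalization, -0.0083 with library size only, -0.0164 with no filter, -0.0264 with only the 10 samples compared, -0.0426 with the 2 replicates summed and -0.00098 with a GC offset. With 1 sample left out, SARD4 in SWNTs against water ran from -0.20 to 0.14, UGT74F2 in PEI-SWNTs against SWNTs from -0.11 to 0.10, ALD1 from -0.65 to 0.17 in PEI-SWNTs against water, -0.83 to 2.04 in SWNTs against water and -2.23 to 0.54 in PEI-SWNTs against SWNTs, FMO1 in SWNTs against water from -0.37 to 0.89, and UGT74F1 from -0.54 to 0.21, -0.17 to 0.27 and -0.64 to 0.11 in the same 3 comparisons as ALD1. With no filter, the calls among the 9 genes became 7 in PEI-SWNTs against non-infiltrated, 7 in SWNTs against non-infiltrated and 8 by the joint test, as more genes entered the test. These counts take changes in either direction and include genes for which no fold change is given because of their few counts. In the first of these comparisons 7.72% of 25909 genes were called higher, and shares for the others are not given, so the counts are no result about the 9 genes. SWNTs against water, with DLO1 as its 1 call, gave 0 at an adjusted p under 0.01, with SWNTs replicates 3 and 4 summed (adjusted p = 0.0588) and with counts thinned to the smallest library (adjusted p = 0.0567), though an unadjusted p under 0.05 was found for 2, 2 and 3 of these 4, while DESeq2 gave 1 and a 1.5-fold minimum gave 2. Leaving out 1 sample gave 0 to 1. With glmTreat, which tests against a 2-fold minimum, SWNTs against non-infiltrated kept 2 genes, water against non-infiltrated 0 and SWNTs against water 0, with unadjusted p under 0.05 for 2 and 0 genes in the last 2. The same test ended the calls of UGT74F2 (adjusted p = 0.135) and UGT76B1 (adjusted p = 0.135) in PEI-SWNTs against non-infiltrated, where 3 of the 4 tested genes kept theirs, of FMO1 in PEI-SWNTs against water (adjusted p = 1), and of DMR6 in PEI-SWNTs against SWNTs (adjusted p = 0.0832), where 2 genes kept theirs. Fitted with only the 10 samples compared, water against non-infiltrated kept 1 gene, DMR6. The calls of DLO1 (adjusted p = 0.0505) and SARD4 (log2 fold change 0.999, under 2-fold) were lost there. With library size only, SARD4 was at 0.99 in SWNTs and 0.98 in water against non-infiltrated, under 2-fold. Shares of all tested genes at these alternative settings and at an unadjusted p are not given, so these counts are no result about the genes. DLO1 is among the 4 tested only through its PEI-SWNT level. The cause of the changed calls was not tested. Replicate numbers shared between groups did not pair the samples: 9 of 30 same-numbered pairs correlated above 0.1 (from -0.36 to 0.29). A replicate block left all 9 genes' calls as they were, with counts of genes called of 2414, 1136, 730, 1565, 232 and 1037 in the 6 comparisons, against 2404, 1125, 735, 1565, 248 and 1041 without it. Depth limits ALD1, UGT76B1, UGT74F1 and BSMT1, whose groups mostly hold under 12 counts a sample.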
